A study of Mus musculus with 12 samples.

Results

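The Wnt pathway was followed through 38 genes of the 53647 in the count tables, chosen by symbol as its ligands, receptors, signal relays and nuclear factors, and all 38 were matched to an Ensembl identifier in every library. RNA was sequenced from mouse cells in 12 libraries that the labels divide into 6 groups of 2, preparation 1 and preparation 2, all of wild-type genotype. The lines are DC2.4, immortalized dendritic cells, and 4T1, breast tumour cells of epithelial origin. Libraries labelled DC2.4 or 4T1 came from cells given mRNA for uniSTING, which the series presents as a mimic of the innate immune adaptor STING, or mRNA for the fluorescent protein EGFP, called Mock. A further experiment gave DC2.4 cells extracellular vesicles for 24 h, isolated from 4T1 cells that had been treated with uniSTING mRNA (EXOuniSTING) or Mock mRNA (EXOmock). All 6 groups thus received mRNA or vesicles, and no untreated group was analysed here. The labels name a transfection agent and lipid nanoparticles as carriers of the mRNA without assigning them to libraries, and give no duration for the mRNA treatment.

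In canonical Wnt signalling, a secreted Wnt ligand brings a Frizzled receptor and the co-receptor LRP5 or LRP6 together, and Dishevelled then inhibits a destruction complex of Axin, APC, casein kinase 1 and GSK3. Beta-catenin that escapes this complex enters the nucleus and activates targets with TCF/LEF factors, BCL9 proteins and Pygopus. The pathway is known for its part in mammary epithelium and its tumours, and in dendritic cells for its part in tolerance.

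Markers of the cell lines went against the labels of the mRNA-treated libraries. In the 4 mRNA-treated libraries labelled DC2.4, the epithelial markers Epcam, Krt8 and Cdh1 stood at 286 to 318, 1270 to 1310 and 541 to 635 CPM (counts per M of the library total), and the leukocyte markers Ptprc, Spi1 and Itgam had at most 19, 5 and 0 counts. In the 4 libraries labelled 4T1, Epcam, Krt8 and Cdh1 had at most 5, 15 and 20 counts, while Ptprc, Spi1 and Itgam lay at 310 to 327, 184 to 191 and 93.4 to 98.6 CPM. The 4 vesicle-treated libraries, labelled DC2.4, also carried Ptprc (302 to 310 CPM), Spi1 (179 to 201 CPM) and Itgam (114 to 139 CPM). Over the whole lists, 20 epithelial markers summed to 5630 to 5880 CPM in the mRNA-treated libraries labelled DC2.4 and to 0.317 to 6.97 CPM in the other 8, and 25 leukocyte markers to 172 to 231 and 11100 to 16800 CPM. Groups are therefore named by their label below, and every statement on a cell line is a statement on libraries so labelled. Total counts were 14.1 to 26.0 M, with preparation 2 being 1.26 to 1.42 times deeper than preparation 1, and a floor of 3 counts stood at 0.116 to 0.213 CPM. Differences were tested with the edgeR quasi-likelihood test over the 14863 genes that passed a filter on low counts, and p-values were adjusted by Benjamini-Hochberg and read at 0.05. Of the 38 genes, 34 passed that filter, and Fzd8, Wnt2b, Wnt4 and Nkd1 are given as summed counts. The labels do not say whether the 2 preparations were separate cultures, so the p-values speak only of the scatter among these libraries, and it may be technical.

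**Figure D1:**
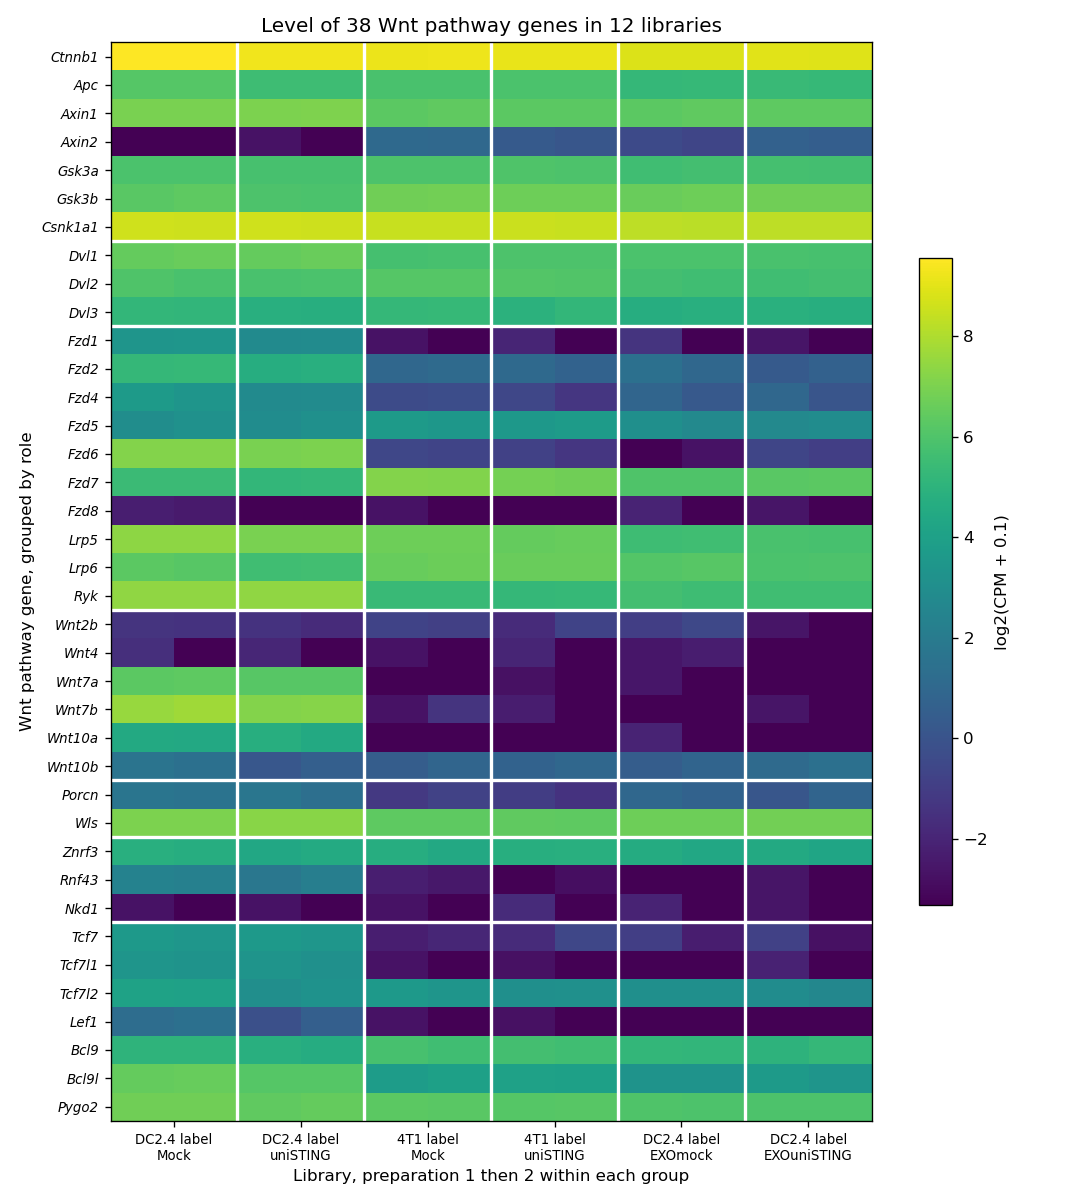
Level of the 38 genes (rows, grouped by role) in the 12 libraries (columns) as log2 of CPM + 0.1. Wnt7a, Wnt7b, Wnt10a, Fzd6, Tcf7 and Tcf7l1 are bright only in the 4 mRNA-treated libraries labelled DC2.4, and Axin2 is dark there.

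Between the Mock libraries of the 2 labels, 25 of the 34 tested genes were higher under the DC2.4 label and 7 were lower, while 42.4% and 40.5% of all genes tested were called in these directions (83% in either). Gsk3a and Dvl3 were not called, with log2 differences of 0.05 (adjusted p = 0.279) and -0.05 (adjusted p = 0.596). The DESeq2 Wald test called 24 higher and 7 lower, against 25.5% and 24.5% of all genes. Several of the 34, such as Wnt7a, Wnt10a, Fzd1, Rnf43, Tcf7l1 and Lef1, passed the filter only through libraries where they were high and so had to differ, and the counts support nothing by themselves. In bulk RNA, fewer cells of a type and less RNA per cell cannot be told apart.

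Among the ligands, Wnt7b and Wnt7a carried most of the signal under the DC2.4 label. Wnt7b stood at 191 and 206 CPM in the Mock and at 141 and 150.4 CPM in the uniSTING libraries, and had 0 to 7 counts in each of the other 8 libraries. Wnt7a, located on GRCm39 at chr6:91340963-91388345 on the minus strand, had 79.6 and 83.1 CPM in the Mock and 72.6 and 74.2 CPM in the uniSTING libraries labelled DC2.4. Elsewhere Wnt7a was at 0 except for 1 count in a library labelled 4T1 and 1 in an EXOmock library. Summed over the Mock libraries, Wnt7a had 3225 counts under the DC2.4 label and 0 under the 4T1 label, which is at least 1170-fold higher against a floor of 3 counts over the group. Wnt10a behaved alike, with 871 and 0 counts, at least 316-fold higher against the same floor. Wnt7b had 7898 and 8 counts, a ratio of 1080 after correction for depth (95% exact interval 546 to 2490, counting error only). Wnt10b, by contrast, was present in all 12 libraries, at 2.81 ± 0.313 CPM with Mock under the DC2.4 label and 1.52 ± 0.325 CPM under the 4T1 label (SD, n = 2 each). Per length, Wnt7b made up 52.5 to 54.1% and Wnt7a 33.6 to 33.8% of the summed TPM (transcripts per M, scaled by exonic length) of the 6 ligands in the Mock libraries labelled DC2.4. Under the 4T1 label the 6 ligands together reached 1.89 ± 0.339 TPM, of which Wnt10b made up 72.3 to 76.2%.

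Receptors divided in the same way. Fzd6 stood at 144 and 142 CPM in the Mock libraries labelled DC2.4 and at 0.559 and 0.516 CPM in those labelled 4T1, where Fzd7 was the main Frizzled at 141 and 139 CPM. Fzd7 was 43.7 and 43.8 CPM under the DC2.4 label, a log2 difference of -1.60 ± 0.04 (SE; edgeR adjusted p = 9.8e-15). On the TPM scale Fzd6 took 53.3 to 54.0% of the 7 Frizzled genes under the DC2.4 label, and Fzd7 took 92.3 to 92.8% under the 4T1 label and 86.3 to 89.5% in the EXOmock libraries. Fzd2 and Fzd4 were higher under the DC2.4 label by log2 4.34 ± 0.14 and 4.10 ± 0.30 (edgeR adjusted p = 4.38e-13 and 7.24e-09), and Fzd1 had 419 against 1 counts. Ryk, an atypical receptor with a Wnt-binding domain, was at 168 and 171 CPM against 42.3 and 42.5 CPM. Of the co-receptors, Lrp5 was higher (log2 0.73 ± 0.03, edgeR adjusted p = 7.16e-12) and Lrp6 lower (log2 -0.27 ± 0.05, edgeR adjusted p = 0.000113) under the DC2.4 label.

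The core relay was abundant under both labels. Ctnnb1, which encodes beta-catenin at chr9:120758282-120789573 on GRCm39, was at 744 ± 7.28 CPM in the Mock libraries of the DC2.4 label, 592 ± 6.36 CPM with Mock under the 4T1 label and 473 ± 1.27 CPM with EXOmock (SD, n = 2 each). The exons of Ctnnb1 and of Ulk4 on the opposite strand overlap over 14.6% of its exonic length, those of Gsk3a and 9130221H12Rik over 28.3% and those of Dvl2 and Acadvl over 18.3%, and the counting used no strand, so reads of these pairs cannot be told apart there. The scaffold Axin1 had 125.5 and 124.5 CPM under the DC2.4 label and 77.8 and 83.4 CPM under the 4T1 label. Axin2, the inducible scaffold that is itself a widely used Wnt target, went the other way. It had 0 and 0 counts in the Mock libraries labelled DC2.4 and 36 and 49 in those labelled 4T1, which is at least 26.0-fold higher under the 4T1 label against 3 counts over the group. The vesicle-treated libraries had 9 and 10 counts of Axin2 with EXOmock and 22 and 28 with EXOuniSTING.

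Nuclear factors again separated the Mock libraries of the 2 labels, but not all libraries labelled DC2.4 from those labelled 4T1. With EXOmock, also under the DC2.4 label, Tcf7, Tcf7l1 and Lef1 had 8, 0 and 0 summed counts. Tcf7 had 453 against 6 counts in the Mock libraries, a ratio of 82.3 (exact interval 37.5 to 225), and Tcf7l1 had 396 against 1. Lef1 was low everywhere, with 97 counts under the DC2.4 label and 1 under the 4T1 label. Tcf7 and Tcf7l2 had counts in all 12 libraries, Tcf7 with as few as 1. Tcf7l2 stood at 16.8 and 16.3 CPM under the DC2.4 label and 12.1 and 10.4 CPM under the 4T1 label. It made up 21.3 to 22.4% of TCF/LEF TPM in the former Mock libraries and 95.7 to 95.9% in the latter. The 2 paralogous adaptors that join beta-catenin to Pygopus were exchanged between the Mock libraries. Bcl9l was higher under the DC2.4 label (91.0 and 94.4 against 13.6 and 15.8 CPM) and Bcl9 lower (33.1 and 32.7 against 54.9 and 49.3 CPM). In the EXOmock libraries Bcl9l had a mean of 9.74 CPM and Bcl9 one of 36.1 CPM.

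Promoter sequences from RefSeq on GRCm38.p6, an earlier assembly than that of the counts, were at hand for 25 of the 38 genes, as windows from 250 bases before to 50 after a start. They are shown for Axin2 and Wnt7a, whose levels separate the mRNA-treated libraries of the 2 labels in opposite directions. A window is also shown for a downstream start of Lef1, where the letters of a TCF/LEF core, CTTTGA or its reverse complement TCAAAG, occurred 2 times. It was chosen for these matches, and the other windows of Lef1 held none. Matches are in capitals. The windows lie at chr11:108920099-108920398 (plus strand), chr6:91411304-91411603 (minus strand) and chr3:131156044-131156343 (plus strand).

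Axin2: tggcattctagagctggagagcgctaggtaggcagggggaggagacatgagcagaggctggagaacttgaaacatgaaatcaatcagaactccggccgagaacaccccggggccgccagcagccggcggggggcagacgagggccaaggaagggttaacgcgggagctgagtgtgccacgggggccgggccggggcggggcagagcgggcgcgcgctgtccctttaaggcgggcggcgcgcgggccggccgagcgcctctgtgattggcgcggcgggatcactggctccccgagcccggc

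Wnt7a: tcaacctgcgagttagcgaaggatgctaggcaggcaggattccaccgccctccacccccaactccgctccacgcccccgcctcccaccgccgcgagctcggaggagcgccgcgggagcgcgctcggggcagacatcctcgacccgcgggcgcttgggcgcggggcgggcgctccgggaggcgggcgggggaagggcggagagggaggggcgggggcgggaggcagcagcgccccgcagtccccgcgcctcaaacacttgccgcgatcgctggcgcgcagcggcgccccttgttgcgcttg

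Lef1: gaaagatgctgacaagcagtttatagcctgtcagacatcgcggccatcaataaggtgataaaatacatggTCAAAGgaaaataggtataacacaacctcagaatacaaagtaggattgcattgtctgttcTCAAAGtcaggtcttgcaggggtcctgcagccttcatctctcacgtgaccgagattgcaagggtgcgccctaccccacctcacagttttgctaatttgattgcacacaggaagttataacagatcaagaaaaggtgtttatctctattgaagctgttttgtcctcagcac

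The windows of Axin2 and Wnt7a are rich in CpG, with 31 and 42 such pairs against a median of 7 over all 32851 windows, while the Lef1 window holds 5. The hexamer, read on both strands, was in 16.0% of all windows and in 4 of the 34 windows of these genes (11.8%), belonging to Fzd1, Gsk3a, Gsk3b and Lef1. A match is a string of letters and not a bound site.

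Under the DC2.4 label, uniSTING mRNA went with lower levels of 16 of the 34 tested genes and a higher level of 1, and 17 were not called. Over all genes tested, 20.9% were lower and 20.8% higher (41.7% in either direction), so that 47.1% lower stands above the background and 2.94% higher below it. The genes were chosen with earlier results of these data known, so these shares describe the list and test nothing. The median log2 fold change was -0.26 over the 34 genes and 0.001 over all genes. Changes were small, with 1 of the 17 called genes, Wnt10b, past 2-fold. Beta-catenin, both LRP co-receptors, 4 Frizzled receptors, the 2 BCL9 proteins, Pygo2 and Tcf7l2 were among those that fell, so that every role but ligand export and membrane feedback had a member that fell.

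**Figure D2:**
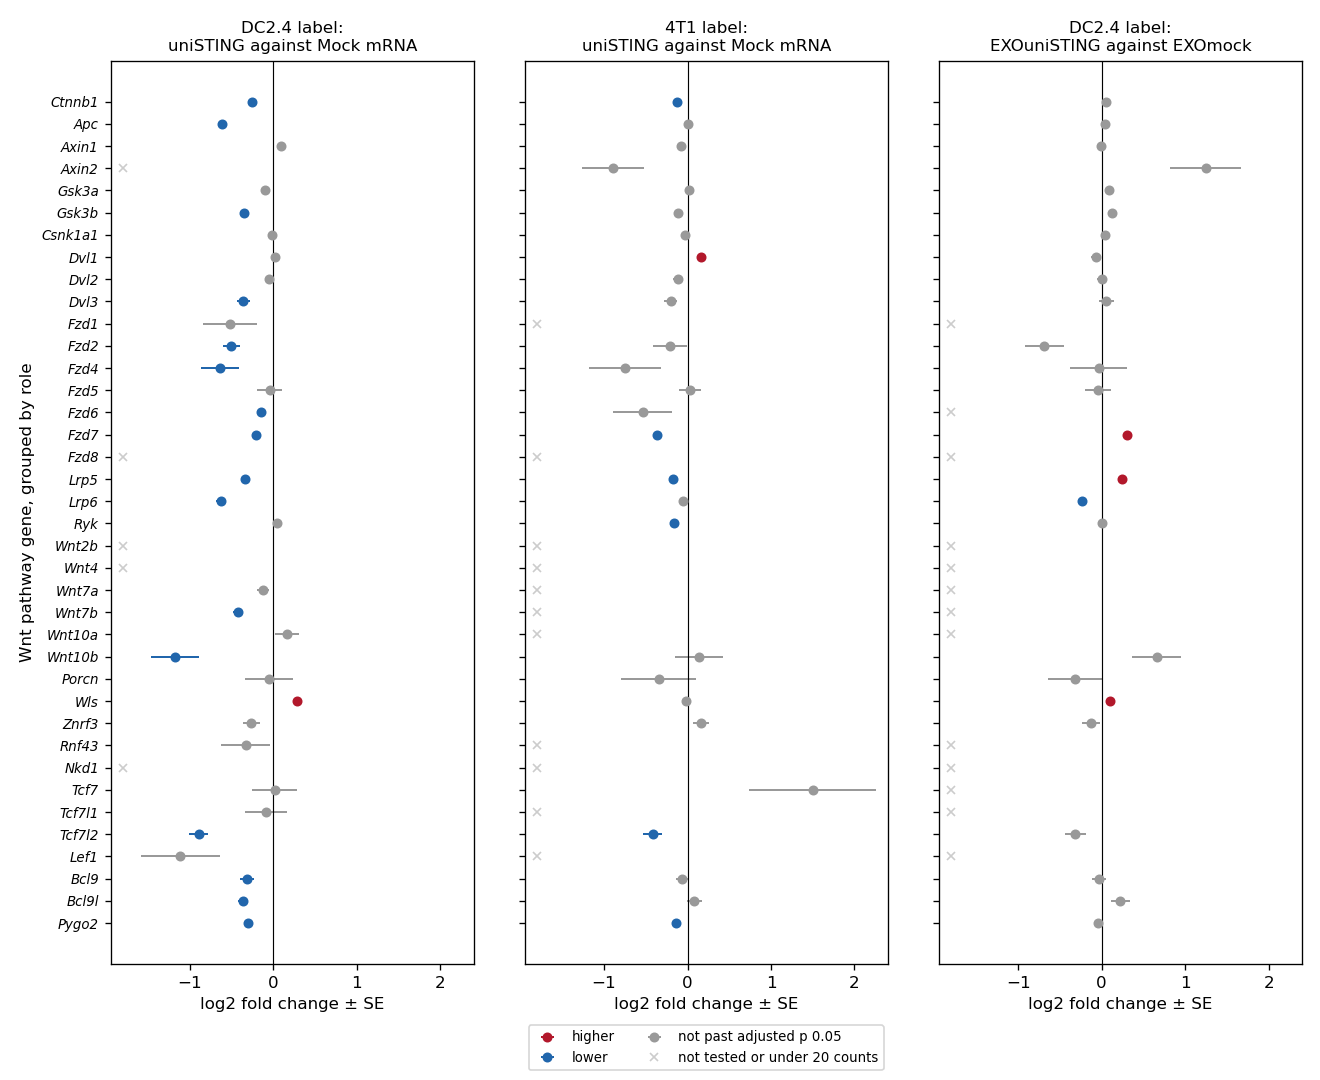
Log2 fold change ± SE of each gene in the 3 treatment comparisons (x axis), from the edgeR fit, with genes in rows by role. Crosses at the left edge mark genes that were not tested or had under 20 counts in the 4 libraries compared. Blue (lower) points number 16 in the left panel, 6 in the middle one and 1 in the right one.

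In the destruction complex, Ctnnb1 was at 749.5 and 739 CPM with Mock and 622 and 611 CPM with uniSTING, a log2 fold change of -0.25 ± 0.02 (SE; edgeR adjusted p = 2.75e-07). Apc, the large scaffold that holds beta-catenin in the complex, fell from 70.2 and 72.4 to 46.2 and 46.0 CPM (log2 -0.61 ± 0.04, edgeR adjusted p = 4.38e-08). Gsk3b, a kinase that marks beta-catenin for destruction, fell from 75.5 and 80.5 to 61.6 and 59.5 CPM (log2 -0.35 ± 0.05, edgeR adjusted p = 3.12e-05). For these 3 genes the groups did not overlap, as was so for 69.1% of all genes tested. Its paralogue Gsk3a (log2 -0.11, adjusted p = 0.0513), the scaffold Axin1 (log2 0.09, adjusted p = 0.066) and the priming kinase Csnk1a1 (log2 -0.01, adjusted p = 0.779) were not called, and Axin2 had 0 against 1 counts. Among the Dishevelled genes, Dvl3 fell (log2 -0.36 ± 0.08, edgeR adjusted p = 0.00273), and Dvl1 and Dvl2 had log2 fold changes of 0.02 and -0.05 without a call.

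Of the 9 receptor genes tested, 6 fell (66.7%) and none rose, against 20.9% and 20.8% of all genes tested. Lrp6 went from 80.39 and 75.0 CPM with Mock to 48.4 and 50.3 CPM with uniSTING (log2 -0.63 ± 0.05, edgeR adjusted p = 2.67e-07). Lrp5 went from 162.7 and 162.5 to 126.0 and 126.5 CPM (log2 -0.35 ± 0.03, edgeR adjusted p = 2.92e-07). Both uniSTING libraries were below both Mock libraries for each co-receptor, a separation that 69.1% of all genes showed in one direction or the other. Fzd2, Fzd4, Fzd6 and Fzd7 fell by 0.50, 0.64, 0.15 and 0.21 on the log2 scale. The call of Fzd4 rested on 448 and 318 summed counts and an adjusted p of 0.0356, and it was lost when any of the 4 libraries compared was left out. Fzd6 lost its call without the Mock library of preparation 2. Fzd1 (log2 -0.52 ± 0.32), Fzd5 (log2 -0.05 ± 0.15) and Ryk (log2 0.04 ± 0.03) were not called.

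Ligands and their export moved in different directions. Wnt10b had 3.03 and 2.59 CPM with Mock and 1.01 and 1.40 CPM with uniSTING, which corresponds to 53 and 57 against 19 and 35 counts (log2 -1.18 ± 0.28, edgeR adjusted p = 0.00402). Wnt7b, the most abundant ligand, fell by 0.43 ± 0.05 on the log2 scale (edgeR adjusted p = 2.93e-05), while Wnt7a (log2 -0.13 ± 0.07, adjusted p = 0.179) and Wnt10a (log2 0.16 ± 0.14, adjusted p = 0.417) were not called. Wls, the carrier that takes Wnt proteins to the cell surface, was the one gene that rose, from 130.0 and 129.2 to 155.9 and 154.6 CPM (log2 0.28 ± 0.03, edgeR adjusted p = 6.37e-07). Porcn, which attaches the lipid that Wnt proteins need, had 118 and 123 summed counts. The ubiquitin ligases Znrf3 and Rnf43, which remove Frizzled from the membrane, had log2 fold changes of -0.27 ± 0.10 (adjusted p = 0.0518) and -0.33 ± 0.30 (adjusted p = 0.414).

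In the nucleus, Tcf7l2 went from 16.8 and 16.3 to 8.12 and 9.37 CPM (log2 -0.90 ± 0.11, edgeR adjusted p = 1.78e-05). Tcf7 and Tcf7l1 had log2 fold changes of 0.01 ± 0.27 and -0.09 ± 0.25, and Lef1, with 97 against 50 summed counts, one of -1.11 ± 0.48 (adjusted p = 0.0831). Bcl9, Bcl9l and Pygo2, which link beta-catenin to the transcription machinery, fell by 0.31, 0.36 and 0.30 on the log2 scale (edgeR adjusted p = 0.00832, 0.000195 and 1.28e-05), and the call of Bcl9 was lost without the uniSTING library of preparation 2. Within each preparation, with 1 library a group and no test, the 17 called genes had the sign of the fit. This lends the calls no support, since they were made on the same 4 libraries.

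**Figure D3:**
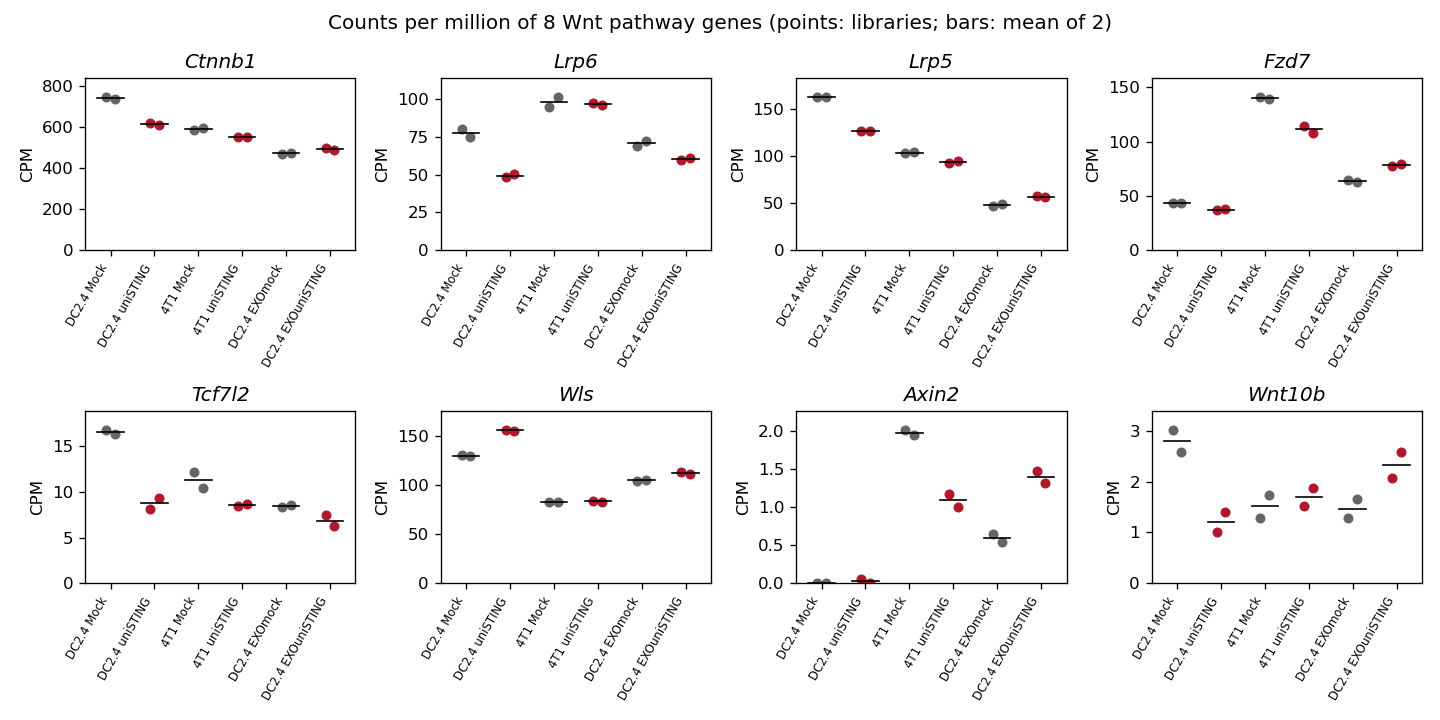
CPM of 8 genes by library (points, grey for Mock and EXOmock, red for uniSTING and EXOuniSTING), with bars at the mean of 2. Lrp6, Tcf7l2 and Wnt10b are lower with uniSTING under the DC2.4 label, and Fzd7 and Lrp5 fall with uniSTING mRNA under the 4T1 label but rise with EXOuniSTING.

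Fold change moved with exonic length under the DC2.4 label. The rank correlation with length was -0.30 across all 14863 genes, as a description, since genes share libraries and are not replicates. The median log2 fold change was 0.24 in the shortest 10% of genes by length and -0.22 in the longest 10%. The Wnt pathway genes had a median exonic length of 5.35 kb against 3.92 kb over all genes, and Apc and Lrp6 were among the longest at 16.1 and 13.7 kb. With the length trend removed, 15 of the 34 genes were lower and 2 higher, against 18.4% and 19.5% of all genes, and their median was -0.18. Fzd4 and Bcl9 then lost their calls, while Gsk3a was called lower and Csnk1a1 higher. In the other comparisons the correlation with length was -0.07 under the 4T1 label and -0.08 for vesicles.

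**Figure D4:**
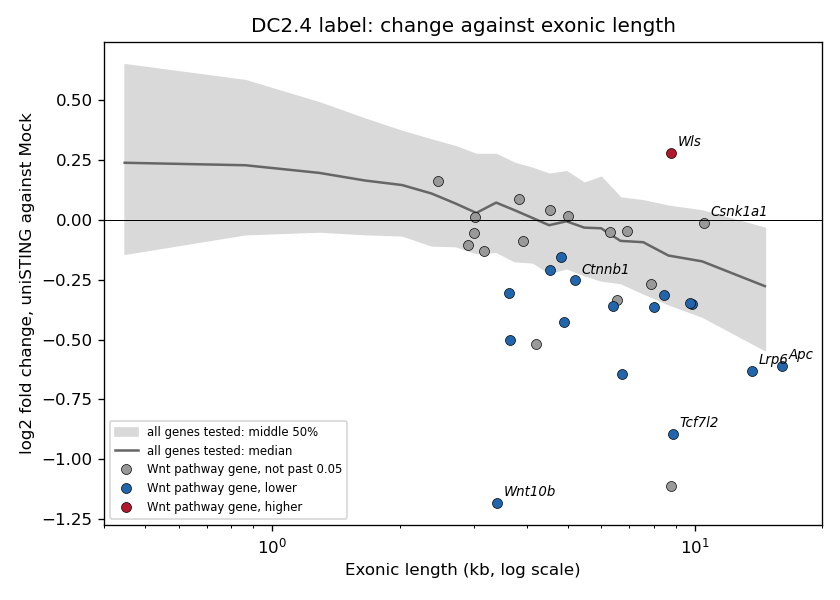
Log2 fold change under the DC2.4 label (y axis) against exonic length in kb (log x axis) for the Wnt pathway genes (points) and for all genes tested (line, median; band, middle 50%, in bins of equal gene number). Lrp6, at 13.7 kb, lies below the band of long genes, and Wls, at 8.79 kb, lies above the band.

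Under the 4T1 label, uniSTING mRNA went with lower levels of 6 genes and a higher level of 1, and 27 were not called. These are 17.6% and 2.94% of the 34 genes, against 15.7% lower and 12.6% higher (28.3% in either direction) over all genes, so the share that fell was near the background in this fit. Of the 34, 7 had under 20 counts in these 4 libraries and could hardly be called. With only the libraries compared, 8 of 26 genes were lower, against 18.2% of all genes. Limma-voom called 9 of the 34 lower, against 17.8% of all genes, and the DESeq2 Wald test 4, against 8.49%. The median log2 fold change was -0.09, against -0.006 over all genes, and -0.12 with genes at 0 in a group set to their bound. Fzd7, the main Frizzled of these libraries, fell most clearly, from 141 and 139 to 114 and 108 CPM (log2 -0.37 ± 0.03, edgeR adjusted p = 1.77e-06). Lrp5 went from 103.1 and 104 to 91.9 and 94.4 CPM (log2 -0.18 ± 0.03, edgeR adjusted p = 0.000636). Ctnnb1 went from 587 and 596 to 555 and 555 CPM (log2 -0.12 ± 0.02, edgeR adjusted p = 0.00066). In all 3 genes both uniSTING libraries were below both Mock libraries, and the groups were likewise apart in one direction or the other for 63.1% of all genes tested.

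Ryk, Tcf7l2 and Pygo2 fell by 0.16, 0.42 and 0.13 on the log2 scale (edgeR adjusted p = 0.0214, 0.0146 and 0.02), and Dvl1, a Dishevelled relay, rose from 54.0 and 56.2 to 62.6 and 62.8 CPM (log2 0.16 ± 0.05, edgeR adjusted p = 0.0215). These 4 calls were lost without the Mock library of preparation 1, and likewise without the uniSTING library of preparation 1, when 3 genes were lower. Ryk was also lost without the Mock library of preparation 2, and Tcf7l2 and Dvl1 without the uniSTING library of preparation 2. Axin2 had 36 and 49 counts with Mock and 23 and 26 with uniSTING (log2 -0.89 ± 0.37, adjusted p = 0.0938). Lrp6 (log2 -0.05 ± 0.04) and Apc (log2 0.001 ± 0.04) showed no call here. The ligands were low: Wnt10b had 67 and 79 summed counts, Wnt2b 20 and 17, Wnt7b 8 and 2, Wnt4 1 and 3, Wnt7a 0 and 1, and Wnt10a 0 and 0. Tcf7 had 6 counts with Mock and 19 with uniSTING, a ratio of 2.99 after correction for depth (exact interval 1.15 to 9.15), of which 15 were in 1 library, and the edgeR test did not call it (adjusted p = 0.167).

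With vesicles, EXOuniSTING libraries differed from EXOmock in 5 of the 34 genes, 4 higher and 1 lower, and 29 were not called. These are 11.8% and 2.94%, against 7.96% higher and 8.14% lower (16.1% in either direction) over all genes, and the median log2 fold change was 0 in both. The DESeq2 Wald test called 3 higher and 1 lower, against 3.94% and 3.54% of all genes. With only the libraries compared, 3 of 25 genes were higher and 1 lower, against 9.82% and 9.76%. The calls lay in receptors and in ligand export. Fzd7 rose from 64.2 and 63.1 to 77.5 and 79.6 CPM (log2 0.31 ± 0.04, edgeR adjusted p = 0.000147), and Lrp5 rose from 46.7 and 48.8 to 57.3 and 56.1 CPM (log2 0.24 ± 0.04, edgeR adjusted p = 0.00137). Lrp6 fell from 68.8 and 72.5 to 59.6 and 60.9 CPM (log2 -0.23 ± 0.05, edgeR adjusted p = 0.0105), so the 2 co-receptors went opposite ways. The call of Lrp6 was lost without the EXOmock library of preparation 2 (0 genes lower) and without the EXOuniSTING library of preparation 1. Wls rose by a small step, from 104.1 and 104.7 to 113 and 111 CPM (log2 0.10 ± 0.03, edgeR adjusted p = 0.0257), and lost its call when any of the 4 libraries was left out, among 7 of 21 alternatives.

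Fzd6 was called on few reads, with 0 and 1 counts with EXOmock and 8 and 9 with EXOuniSTING, a ratio of 15.4 (exact interval 2.41 to 644). In those libraries epithelial markers were also low, at 0.428 to 6.33 CPM in sum with EXOmock and 0.659 to 6.97 CPM with EXOuniSTING, and their part in the Fzd6 counts was not tested. Axin2 had 19 and 50 summed counts, a ratio of 2.38 (exact interval 1.38 to 4.28), and missed the threshold in the fit (log2 1.25 ± 0.43, edgeR adjusted p = 0.0672). Its 2 EXOuniSTING libraries, at 1.47 and 1.32 CPM, were above both EXOmock libraries, at 0.640 and 0.535 CPM, and 56% of all genes tested were apart in one direction or the other in this comparison. Ctnnb1 (log2 0.06 ± 0.02, adjusted p = 0.0998), Gsk3b (log2 0.13 ± 0.04, adjusted p = 0.0702) and Fzd2 (log2 -0.68 ± 0.24, adjusted p = 0.0649) were not called.

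Wnt2b, a canonical ligand, was too low for the test and is given by its counts. It had 6 and 11 counts with EXOmock and 1 and 0 with EXOuniSTING, a ratio of 0.0533 after correction for depth (exact interval 0.00128 to 0.34, counting error only). In the remaining groups Wnt2b had 11 and 10 summed counts with Mock and uniSTING under the DC2.4 label, and 20 and 17 under the 4T1 label, so EXOuniSTING had the lowest count of the 6 groups. Without a filter on low counts, edgeR gave an adjusted p of 0.00446 for the vesicle comparison, and DESeq2 gave none (unadjusted p = 0.0147). Fzd8, Wnt4 and Nkd1 had at most 4 counts in any library. Their 28 counts over the preparation 1 libraries stood against 4 over those of preparation 2, although preparation 2 was deeper. Ins2 and Sftpc, genes of pancreatic beta cells and of lung epithelium, had 171 to 2117 and 421 to 729 counts in each preparation 1 library and 0 in each of preparation 2. Their part in such low counts was not tested.

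Whether a response differed between experiments was tested directly. Between the labels, the response to uniSTING mRNA was more negative under DC2.4 for 10 of the 34 genes and more positive for 4, against 15.1% and 16% of all genes (31.1% in either direction). The DESeq2 Wald test called 6 and 1, against 8.74% and 8.82% of all genes. Apc (difference in log2 fold change -0.61 ± 0.06, edgeR adjusted p = 2.57e-06) and Lrp6 (-0.58 ± 0.07, edgeR adjusted p = 1.83e-05) differed most clearly, together with Wls (0.30 ± 0.04, edgeR adjusted p = 3.91e-05). Fzd7 fell under both labels and fell less under DC2.4 (0.16 ± 0.05, edgeR adjusted p = 0.0389). That call was lost under 4 of 8 other settings and without any of 7 of the 12 libraries. Between mRNA under the 4T1 label and vesicles, 7 genes were lower and 1 higher in the mRNA response, against 15% and 13% of all genes (28% in either direction). Here the DESeq2 Wald test called 5 and 0, against 8.62% and 6.25% of all genes. Fzd7 (-0.67 ± 0.05, edgeR adjusted p = 5.33e-07), Lrp5 (-0.42 ± 0.05, edgeR adjusted p = 3.86e-05) and Ctnnb1 (-0.18 ± 0.03, edgeR adjusted p = 0.000601) were the clearest. Axin2, not called in either experiment alone, differed between them by -2.14 ± 0.57 (edgeR adjusted p = 0.013), a call that was lost under the DESeq2 Wald test and without the EXOmock library of preparation 2.

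Beyond the 38 genes, 119 others of the pathway were listed, likewise with earlier results of these data known, and 81 of the 119 were tested. Under the DC2.4 label 14 of the 81 rose (17.3%) and 29 fell (35.8%), against 20.8% and 20.9% of all genes. Under the 4T1 label 9 rose (11.1%) and 19 fell (23.5%), against 12.6% and 15.7%. With vesicles 6 rose (7.41%) and 10 fell (12.3%), against 7.96% and 8.14%, so the shares that rose were near the background in the 3 comparisons. Of 19 further genes of the destruction complex and beta-catenin turnover, 11 were lower (57.9%) and 1 higher (5.26%) under the DC2.4 label, against the 20.9% and 20.8% of all genes. Tnks, a tankyrase that marks Axin for degradation, was at 76.7 ± 3.40 CPM with uniSTING and 113 ± 1.84 CPM with Mock (SD, n = 2 each; log2 -0.55 ± 0.04, edgeR adjusted p = 6.22e-08). Of 13 further nuclear cofactors tested, 4 were higher (30.8%) and 5 lower (38.5%) under the DC2.4 label, with a median log2 fold change of -0.001. Among them, the coactivators Crebbp and Ep300 fell by 0.81 and 0.65 on the log2 scale (edgeR adjusted p = 3.37e-08 and 2.05e-08). Ep300 rose under the 4T1 label (log2 0.16, edgeR adjusted p = 0.00221) and fell with vesicles (log2 -0.13, edgeR adjusted p = 0.0327). Ccnd1, a cell cycle gene often listed among Wnt targets, fell in the 3 comparisons, by 0.43, 0.19 and 0.16 on the log2 scale (edgeR adjusted p = 1.16e-09, 5.98e-05 and 0.000696). The listed targets as a whole did not share a direction under the DC2.4 label, where 6 of 14 tested rose and 5 fell: Myc fell by 0.40 and Id2 rose by 1.24 on the log2 scale (edgeR adjusted p = 9.72e-08 and 1.95e-07). Under the 4T1 label 3 of these 14 rose and 5 fell, with Jun at log2 -0.41 and Tiam1 at log2 0.90. With vesicles 3 rose and 3 fell, with Fosl1 at log2 -0.85.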

How the data were processed

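RNA of 12 libraries was sequenced from 1.0 µg of total RNA each, per the labels' protocols. The deposited values are counts per gene. HISAT2 and the GRCm39 assembly are named in the submitters' processing notes. The authors counted exons by gene with featureCounts (Subread 2.0.1) on Ensembl release 103 and set no strand option, per the file headers. A trimming step and the HISAT2 version are not given in the sources used here. Gene symbols came from a table of names that matched 52093 of 53647 identifiers. The Wnt pathway genes and all lists were chosen with earlier results of these data known.

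The quasi-likelihood F test of edgeR 4.0.16 (R 4.3.3) was fitted to all 12 libraries with a mean for each group, after filterByExpr with these groups and TMM scaling, and p-values were adjusted by Benjamini-Hochberg over 14863 genes. Text names all 38 genes, and of each further list at most the 3 with the smallest adjusted p. CPM use deposited totals, and TPM use exonic lengths of the files. Standard errors are the size of the log2 fold change over the root of F. Ratios of summed counts have exact conditional binomial 95% intervals, which like the floor of 3 counts cover counting error only. The fit's biological coefficient of variation was 3.05%. The length trend was removed by offsets per gene from a lowess curve of log2 fold change on exonic length. Alternatives were size factors and the Wald test of DESeq2 1.42.0, upper-quartile scaling, limma-voom 3.58.1, other filters, only the libraries compared, the preparation as a block, and each library left out. Direction within a preparation and medians at a bound were added after the data were examined. The procedure was tested on simulated counts. Figures were drawn with matplotlib 3.10.9.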

Additional observations from a re-analysis of the deposited data

Results flagged for a closer look

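The results given here stand out because the response to treatment differed between experiments, by a test of the difference itself in the edgeR fit over all genes. Values are differences of log2 fold changes ± SE, and no cause was tested.

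For uniSTING mRNA under the DC2.4 label minus that under the 4T1 label, 10 of the 34 genes were negative (29.4%) and 4 positive (11.8%). The shares over all genes tested were 15.1% and 16% (31.1% in either direction). In the core relay the negative genes were Ctnnb1 (-0.13 ± 0.03, edgeR adjusted p = 0.00345), Apc (-0.61 ± 0.06, edgeR adjusted p = 2.57e-06) and Gsk3b (-0.24 ± 0.06, edgeR adjusted p = 0.00892). At the membrane they were Lrp5 (-0.17 ± 0.04), Lrp6 (-0.58 ± 0.07), the ligand Wnt10b (-1.32 ± 0.40) and the ubiquitin ligase Znrf3 (-0.43 ± 0.14), with edgeR adjusted p of 0.00783, 1.83e-05, 0.0232 and 0.0366. In the nucleus they were Tcf7l2 (-0.48 ± 0.16), Bcl9l (-0.44 ± 0.11) and Pygo2 (-0.17 ± 0.05), with edgeR adjusted p of 0.038, 0.00578 and 0.0264. Znrf3 was not called in either experiment alone, at log2 -0.27 under the DC2.4 label and 0.16 under the 4T1 label. The 4 positive differences were Axin1 (0.17 ± 0.05), Fzd7 (0.16 ± 0.05), Ryk (0.20 ± 0.06) and Wls (0.30 ± 0.04), with edgeR adjusted p of 0.031, 0.0389, 0.0159 and 3.91e-05. Axin1 too was called in neither experiment alone. The calls of Ctnnb1, Apc, Lrp6, Bcl9l and Wls held under the 8 other settings tried and without each of the 12 libraries. With a library left out, Fzd7 and Tcf7l2 lost theirs in 7 of 12 fits, Axin1 in 6, Znrf3 and Pygo2 in 5, Wnt10b in 4, and Gsk3b and Ryk in 2. The DESeq2 Wald test did not call Axin1, Fzd7, Lrp5, Ryk, Wnt10b, Tcf7l2 and Pygo2. Fzd7 was further lost under upper-quartile factors, without a filter and with only the libraries compared, and Tcf7l2 and Pygo2 without a filter. These 2 sets of libraries also differ in every defining cell marker read, so the difference between labels and that between marker profiles cannot be told apart.

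For uniSTING mRNA under the 4T1 label minus the vesicle response, 7 of the 34 genes were negative (20.6%) and 1 positive (2.94%). All genes tested had shares of 15% and 13% (28% in either direction). The negative genes were Ctnnb1 (-0.18 ± 0.03), Axin2 (-2.14 ± 0.57), Gsk3b (-0.24 ± 0.06) and Fzd6 (-4.23 ± 0.83), with edgeR adjusted p of 0.000601, 0.013, 0.0093 and 0.00175. Further ones were Fzd7 (-0.67 ± 0.05), Lrp5 (-0.42 ± 0.05) and Wls (-0.12 ± 0.04), with edgeR adjusted p of 5.33e-07, 3.86e-05 and 0.0453. Dvl1 was positive (0.23 ± 0.07, edgeR adjusted p = 0.0224). The call of Wls was lost under 5 of the 8 other settings and in 11 of 12 fits with a library left out, and that of Dvl1 under the DESeq2 Wald test and in 5 of 12 such fits. Axin2 was lost under the DESeq2 Wald test and without EXOmock replicate 2, and Gsk3b without EXOmock replicate 1, while Ctnnb1, Fzd6, Fzd7 and Lrp5 held under all of these. The value of Fzd6 rests on 1 and 17 summed counts in the vesicle groups and 23 and 17 under the 4T1 label, and a fitted fold at such counts depends on the prior count. Axin2 rests on 85 and 49 against 19 and 50 summed counts.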

How the results depend on the processing

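Under the DC2.4 label the 16 lower genes became 14 to 17 when each of the 12 libraries was left out and 14 to 21 under the other alternatives, and the 1 higher gene became 1 to 2. It was 2 under upper-quartile factors, limma-voom, a filter of 1 CPM in 4 libraries, only the libraries compared and the length trend removed; the added gene was Csnk1a1 in the last and Axin1 in the others, and Axin1 was also added without any of the 4 libraries labelled 4T1 or without EXOmock replicate 1. Under the 4T1 label the lower genes ranged over 3 to 7 with libraries left out and 4 to 9 under the other alternatives, and the higher over 0 to 1, with 0 under the DESeq2 Wald test. For vesicles the higher genes ranged over 3 to 4 and the lower over 0 to 2 with libraries left out, and over 3 to 6 and 1 to 2 under the other alternatives, with 6 higher under DESeq2 size factors, upper-quartile factors and the block, and 2 lower without a filter; 0 were lower without EXOmock replicate 2, and Wnt2b, once past the filter, was the added gene. Between labels 6 to 10 differences were negative and 1 to 4 positive with libraries left out, and 6 and 1 under DESeq2; 6 were negative without DC2.4 Mock replicate 1, DC2.4 uniSTING replicate 1 or 4T1 uniSTING replicate 2, and 1 was positive without 4T1 Mock replicate 2. Between mRNA under the 4T1 label and vesicles they ranged over 5 to 7 and 0 to 2, and the positive count was 0 under DESeq2 and 2 under upper-quartile factors, without a filter and with only the libraries compared. The Mock contrast gave 24 to 25 higher and 6 to 7 lower with libraries left out, and 24 to 26 and 6 to 7 under the other alternatives. The share of all genes called moved with the setting throughout. Under the DC2.4 label, limma-voom called 21 of 34 Wnt genes and 22.3% of all genes lower. Values were 20 of 33 and 25.4% with only the libraries compared, and 17 of 38 and 11.7% without a filter. Unless named otherwise, the cause was not tested.

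Among single genes called in any setting, only Csnk1a1 under the DC2.4 label turned its sign: from -0.01 it became 0.18 with the length trend removed (adjusted p = 8.13e-05), by construction of that offset, and ranged from -0.04 to 0.01, without a call, with libraries left out; it was 0.01 under upper-quartile factors, without DC2.4 Mock replicate 1 and without DC2.4 uniSTING replicate 2. Axin2, not called in the fit reported, was called under limma-voom and under the block in both the 4T1-labelled and the vesicle comparison, with adjusted p of 0.021 to 0.312 and 0.0428 to 0.265 over its alternatives, and the call of Fzd6 with vesicles could not be tested with only the libraries compared. Without each library in turn, Wnt2b in the vesicle comparison had an adjusted p of 0.0148 to 0.136 where it was tested, the highest without EXOuniSTING replicate 2.

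With the preparation number as a replicate block, no call of these comparisons was lost. Under the DC2.4 label 18 genes were lower and 2 higher, with Axin1, Znrf3 and Lef1 gained, against 21.5% and 21.6% of all genes. Axin2 and Gsk3b were gained under the 4T1 label (8 lower, against 16.7% of all genes) and with vesicles (6 higher, against 8.25%). Deviations of same-numbered libraries from their group means correlated over 0.1 in 4 of 15 pairs (range -0.032 to 0.379), and at 0.379, 0.163 and 0.071 between the groups compared under the DC2.4 label, under the 4T1 label and with vesicles. The labels do not say what the groups' preparations share, and the fit reported did not pair the libraries. Low correlations between groups that were not compared do not bear on that choice. Ins2 and Sftpc were read in preparation 1 alone in each of the 6 groups, so part of the difference between preparations was common to the groups. The block is a common term for preparation over the 6 groups, so it allows for such a common part only. A part shared only by the groups of a comparison, where correlations were 0.379, 0.163 and 0.071, was not modelled. That no call was lost under the block therefore does not bear on pairing within a comparison. Depth limits genes of few counts, such as Fzd8 and Nkd1, with 8 and 10 counts over the 12 libraries.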

Other observations

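Shares within gene families, on the TPM scale, gave a further view of the treatments. They are descriptions of 2 libraries a group, with no test. In the vesicle-treated libraries Lrp5 made up 48.6 to 48.8% of the 2 co-receptors with EXOmock and 56.4 to 57.4% with EXOuniSTING. The larger share thus passed from Lrp6 to Lrp5 on this scale only. In CPM, which are not scaled by length, Lrp6 stayed above Lrp5, at 70.6 against 47.7 with EXOmock and 60.3 against 56.7 with EXOuniSTING. Under the 4T1 label Dvl1 made up 38.6 to 38.9% of the 3 Dishevelled genes with Mock, where Dvl2 led narrowly with 39.7 to 40.2%. With uniSTING Dvl1 led with 43.4 to 44.4%. In CPM Dvl2 stayed above Dvl1, at 71.6 against 55.1 with Mock and 67.3 against 62.7 with uniSTING. Under the DC2.4 label the Frizzled genes together went from 170 ± 0.707 to 130 ± 4.24 TPM (SD, n = 2 each), while Fzd6 kept the largest share, at 53.3 to 54.0% and 57.3 to 57.5%. Levels fell more on this scale than in CPM: Fzd6 went from 90.9 to 74.8 TPM and from 143 to 127 CPM. Csnk1a1, which was not called, went from 114 to 104 TPM and from 391 to 382 CPM. In the same libraries Tcf7l2 made up 21.3 to 22.4% of TCF/LEF TPM with Mock and 12.1 to 14.9% with uniSTING, and Tcf7 43.8 to 45.8% and 51.0 to 53.2%.

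Axin1 made up at least 98.2% of Axin TPM in every library, also where Axin2 was detected. Wnt10b reached 95.4 to 100% of ligand TPM with EXOuniSTING and 65.5 to 74.6% with EXOmock, the groups in which Wnt2b had 1 and 17 summed counts.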
